A study of Mus musculus with 3 samples.

Results

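Of the 600 HDAC3 peaks listed for NS-DADm mouse liver, 213 share no base with any of the 5799 peaks listed for wild-type (WT) liver. These 213 NS-DADm-only peaks were chosen by comparing the deposited lists, on coordinates of the mouse build mm8, and the comparison itself is therefore not a finding. They make up 35.5% of the NS-DADm list (exact Clopper-Pearson 95% interval 31.7 to 39.5%), and the other 387 NS-DADm peaks overlap a WT peak. From the WT side, 93.3% of peaks have no NS-DADm peak over them. All intervals given for shares are of this kind and cover only the counting error over peaks of these lists.

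HDAC3 was mapped by chromatin immunoprecipitation and sequencing (ChIP-seq) in livers of male C57Bl/6 mice aged 10 to 12 weeks, kept on normal chow and a light-dark cycle and taken at zeitgeber time 10. DNA from 4 to 5 mice was pooled into 1 library for NS-DADm. The WT library joins 2 samples, 1 from WT liver and 1 from HDAC3f/f liver that had received AAV-GFP, a virus carrying green fluorescent protein. The series also names an input sample without antibody, which was not used here.

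HDAC3 removes acetyl groups from histone tails. It is the catalytic subunit of the nuclear receptor corepressor complexes built on NCoR and SMRT, whose deacetylase-activating domain (DAD) both binds and switches on the enzyme. In liver these complexes are brought to DNA by nuclear receptors such as Rev-erb alpha, and HDAC3 occupancy is known to follow the daily cycle and to be high late in the light phase. As background not stated in the labels, NS-DADm mice carry mutated activating domains in both corepressors.

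Each peak is 200 bp wide and carries 1 value, taken as reads scaled to library size (RPM), rounded to 0.1 RPM. The NS-DADm list starts at 1.1 RPM and has a median of 1.2, and the WT list starts at 1.0 with a median of 1.4 RPM. Read depth is unknown. With 1 NS-DADm library and 1 WT library joined from 2 samples, no spread between mice can be given. Since the peaks were selected from the same lists, the values below are descriptions with no p-value. A WT value at an NS-DADm-only peak is unknown: the site was either under the limit in WT or left off that list for another reason. Genes were not assigned because no mm8 annotation was used here.

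The NS-DADm-only peaks ranged from immediate neighbours of WT peaks to sites megabases from any. By the gap to the nearest WT peak, edge to edge, 35 lay within 1 kb (16.4%, 11.7 to 22.1%), 46 over 1 to 10 kb away (21.6%, 16.3 to 27.7%), 61 over 10 to 100 kb away (28.6%, 22.7 to 35.2%) and 70 over 100 kb away (32.9%, 26.6 to 39.6%). The remaining peak is on chromosome Y, where the WT list has no peak. The median gap was 22.1 kb, with quartiles of 4.33 and 160 kb.

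The same distance was taken for the 387 overlapping NS-DADm peaks, leaving out the WT peaks they overlap. Of these, 12.4% (9.29 to 16.1%) were over 100 kb from the next WT peak, against 32.9% of the NS-DADm-only peaks, and their median gap was 7.74 kb. Among all WT peaks, 18.3% (17.3 to 19.3%) were over 100 kb from another WT peak. At the short end the shares were close: a separate WT peak within 1 kb was found for 16.4% of NS-DADm-only peaks, 17.6% (13.9 to 21.7%) of overlapping NS-DADm peaks and 15.3% (14.4 to 16.3%) of WT peaks. The difference between NS-DADm-only and overlapping peaks thus lay in the classes of over 1 to 10 kb (21.6% against 38.0%) and over 100 kb.

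**Figure D1:**
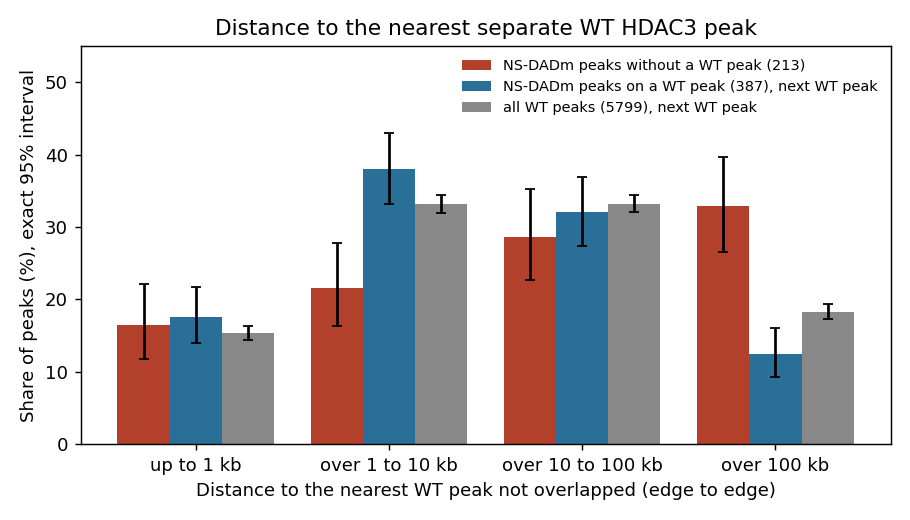
Share of peaks (%) in each class of distance to the nearest WT peak that the peak does not overlap, for NS-DADm peaks without a WT peak, NS-DADm peaks on a WT peak, and WT peaks themselves; bars carry exact 95% intervals. The class over 100 kb holds 32.9% of the NS-DADm-only peaks, 12.4% of the overlapping ones and 18.3% of WT peaks.

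The members nearest to WT peaks were separated from them by a few bases. At chromosome 15, 38376076 to 38376275, an NS-DADm peak of 1.2 RPM lay 6 bp from a WT peak of 3.6 RPM. At chromosome 6, 29217232 to 29217431 (1.1 RPM), the gap was 14 bp to a WT peak of 1.9 RPM, and at chromosome 2, 143701176 to 143701375 (1.4 RPM), it was 29 bp to a WT peak of 2.3 RPM. Just outside the rule, the smallest overlaps among the 387 were 4 bp at chromosome 9, 45966968 to 45967167 (1.4 RPM, on a WT peak of 3.1 RPM), 14 bp at chromosome 11, 51611992 to 51612191 (1.1 RPM, on 2.2 RPM), and 16 bp at chromosome 9, 106105640 to 106105839 (1.7 RPM, on 1.3 RPM). Gaps and overlaps on either side of the limit were thus small beside the 200 bp width of a peak. A gap of at most 500 bp was found for 19 of the 213, and the median overlap of the 387 was 161 bp.

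Values of the NS-DADm-only peaks sat close to the bottom of the list. The lowest was 1.1, the median 1.2 and the highest 2.4 RPM, with quartiles of 1.1 and 1.3 RPM, against a range of 1.1 to 3.9 and a median of 1.3 RPM at the overlapping peaks. The lowest step of 1.1 RPM held 25.7% (12.5 to 43.3%) of the peaks within 1 kb of a WT peak and 39.1% (25.1 to 54.6%) of those over 1 to 10 kb away. It held 57.4% (44.1 to 70.0%) of those over 10 to 100 kb away and 55.7% (43.3 to 67.6%) of those farther off. For overlapping peaks the share was 24.3% (20.1 to 28.9%). Peaks within 1 kb of a WT peak thus had about the same share at the lowest step as peaks on one, and the distant peaks had more.

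Seen by value, the share of NS-DADm peaks without a WT peak went down step by step. At 1.1 RPM it was 51.8% of 195 peaks, at 1.2 RPM 37.0% of 138, at 1.3 RPM 32.3% of 93, at 1.4 RPM 23.0% of 61 and at 1.5 RPM or more 15.0% of 113 (9.01 to 23.0%).

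The NS-DADm-only peaks of 1.5 RPM or more were few and occurred in all 4 distance classes. There were 17 of them (7.98%, 4.72 to 12.5%), against 96 of 387 overlapping peaks (24.8%, 20.6 to 29.4%). Of the 17, 9 were over 100 kb from any WT peak, 1 was over 10 to 100 kb away, 4 over 1 to 10 kb and 3 within 1 kb. Within the class over 100 kb they made up 12.9% (6.05 to 23.0%), and in the class over 10 to 100 kb 1.64% (0.0415 to 8.80%). These intervals overlap in part, which does not settle whether the shares differ.

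**Figure D2:**
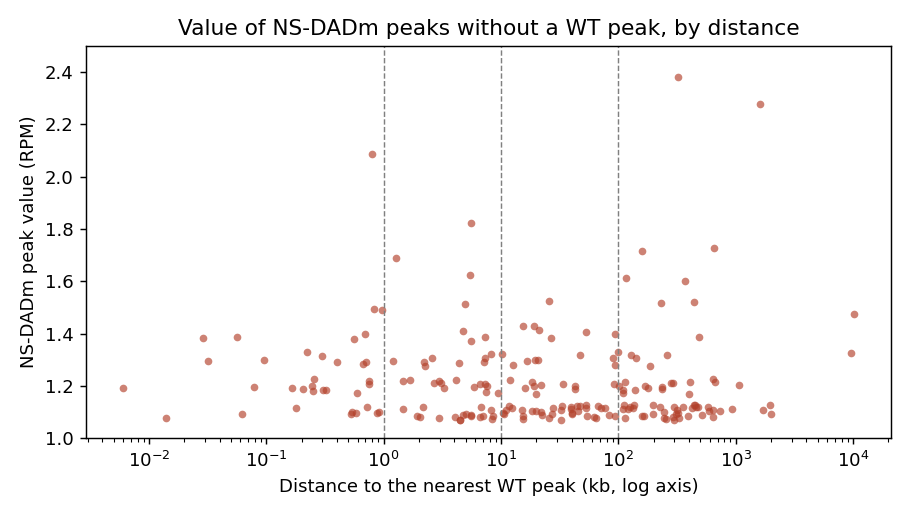
Value of each NS-DADm-only peak (RPM) against its distance to the nearest WT peak (kb, log axis); dashed lines mark 1, 10 and 100 kb, points are shifted by up to 0.03 RPM to separate ties, and the chromosome Y peak is not drawn. Most points lie at 1.1 to 1.3 RPM at every distance, and those above 2 RPM are 1 peak just under 1 kb and 2 peaks over 100 kb away.

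The 2 highest NS-DADm-only peaks were remote from WT peaks. The peak at chromosome 11, 34525251 to 34525450, had 2.4 RPM, and its nearest WT peak, of 1.1 RPM, was 325 kb away and was itself listed in NS-DADm. No other peak of either list lay within 100 kb of it, and 1 WT peak lay within 500 kb. The peak at chromosome 18, 7321382 to 7321581, had 2.3 RPM, with the nearest WT peak (1.2 RPM) 1614 kb away and the nearest other NS-DADm peak 5683 kb away. Both were the highest NS-DADm peaks of their chromosomes. The same held at chromosome 1, 172881626 to 172881825, with 1.7 RPM and a WT peak of 1.2 RPM at 158 kb. In this class they were followed by chromosome 2, 181847275 to 181847474 (1.7 RPM, 651 kb), and by 2 peaks of 1.6 RPM, at chromosome 4, 154787467 to 154787666 (366 kb), and chromosome 8, 130070193 to 130070392. The last was 117 kb from a WT peak of 1.1 RPM and had 13 WT peaks within 500 kb. The peaks on chromosomes 2 and 4 lay past the last WT peak of their chromosomes, as did 2 further NS-DADm-only peaks, so 4 of 212 lay outside the span of WT peaks and 0 of the 387 overlapping peaks could.

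The farthest were the 2 peaks on chromosome X. At 119776883 to 119777082 the value was 1.5 RPM and the nearest WT peak 10170 kb away, and at 120300786 to 120300985 it was 1.3 RPM and 9646 kb. They lay 524 kb from each other and are the only NS-DADm peaks listed on that chromosome, where WT has 16. The next farthest, at chromosome 8, 79982910 to 79983109, had 1.1 RPM and a WT peak of 1.6 RPM at 1997 kb. The chromosome Y peak, at 2635579 to 2635778, had 1.3 RPM.

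Some of the higher peaks lay near WT peaks. At chromosome 11, 35806938 to 35807137, NS-DADm had 2.1 RPM, 0.790 kb from a WT peak of 1.2 RPM, with 5 WT peaks within 100 kb. This was the single NS-DADm-only peak within 1 kb whose value exceeded 1.5 RPM. The next in that class were 2 peaks of 1.5 RPM on chromosome 1, at 65113439 to 65113638 and 74002406 to 74002605, each with a WT peak of 1.6 RPM less than 1 kb away. Next came a tie at 1.4 RPM. It held the chromosome 2 peak 29 bp from its WT neighbour, chromosome 5, 123442363 to 123442562, 0.699 kb from a WT peak of 2.1 RPM, chromosome 8, 74311725 to 74311924, 0.563 kb from 1.9 RPM, and chromosome 17, 31659215 to 31659414, 0.056 kb from 3.9 RPM.

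In the class over 1 to 10 kb the highest was at chromosome 19, 5844409 to 5844608, with 1.8 RPM and a WT peak of 2.3 RPM at 5.57 kb. The 3 that followed had lower WT peaks beside them. At chromosome 11, 116025417 to 116025616, 1.7 RPM stood 1.27 kb from a WT peak of 1.2 RPM. Likewise at chromosome 11, 86397693 to 86397892, 1.6 RPM stood 5.44 kb from 1.1 RPM, and at chromosome 16, 30332581 to 30332780, 1.5 RPM stood 4.97 kb from 1.0 RPM. Next, 3 peaks tied at 1.4 RPM. The one at chromosome 2, 32516021 to 32516220, had a WT peak of 2.8 RPM at 7.25 kb, that at chromosome 5, 130485460 to 130485659, one of 1.2 RPM at 4.72 kb, and that at chromosome 8, 93767359 to 93767558, one of 1.4 RPM at 5.51 kb.

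The class over 10 to 100 kb had the narrowest range, 1.1 to 1.5 RPM. Its highest was at chromosome 14, 54513769 to 54513968 (1.5 RPM), 25.8 kb from a WT peak of 1.0 RPM. A group of 6 tied next at 1.4 RPM: chromosome 5, 31164605 to 31164804, and 114434022 to 114434221, chromosome 6, 128445463 to 128445662, chromosome 9, 108641484 to 108641683, chromosome 11, 107295427 to 107295626, and chromosome 17, 28806671 to 28806870. Their WT neighbours had 1.0 to 3.2 RPM at 15.4 to 94.5 kb.

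The WT peaks nearest to NS-DADm-only peaks were of ordinary height. Their median was 1.5 RPM (quartiles 1.2 and 1.9, range 1.0 to 3.9), against 1.4 RPM (1.2 to 1.9) for all WT peaks and 2.2 RPM (1.6 to 2.9) for the WT peaks under the overlapping NS-DADm peaks. The next separate WT peak beside an overlapping NS-DADm peak had a median of 1.6 RPM (1.2 to 2.0). By class, the nearest WT peak had a median of 1.6 RPM within 1 kb, 1.4 RPM over 1 to 10 kb, 1.6 RPM over 10 to 100 kb and 1.4 RPM beyond. Neighbours of 2 RPM or more were found for 12 of 35 peaks within 1 kb (34.3%, 19.1 to 52.2%) and for 6 of 46 over 1 to 10 kb away (13.0%, 4.94 to 26.3%), against 21.1% of all WT peaks. They were also found for 18 of 61 over 10 to 100 kb away (29.5%, 18.5 to 42.6%) and 10 of 70 beyond 100 kb (14.3%, 7.07 to 24.7%), so the height of the neighbour had no steady order with distance.

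The nearest WT peak was higher than the NS-DADm-only peak in 152 of 212 cases, equal in 15 and lower in 45. Within 1 kb these numbers were 27, 1 and 7. The highest WT neighbour within 1 kb, 3.9 RPM, occurred at chromosome 17, 31659215 (NS-DADm 1.4 RPM), and at chromosome 2, 26422214 (1.3 RPM). Since the lists start at nearly the same value and WT values reach higher, this order carries no weight of its own.

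**Figure D3:**
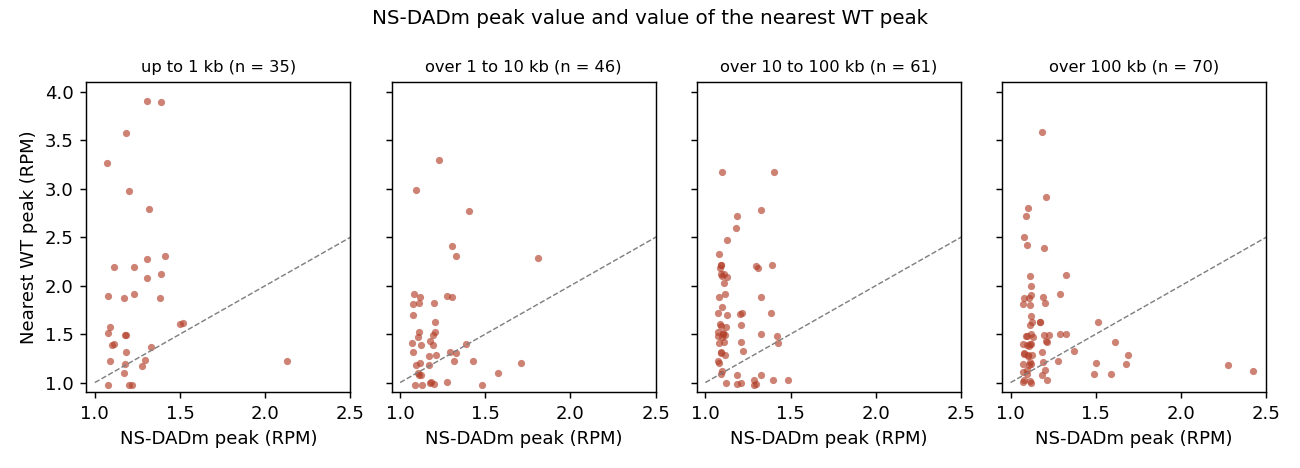
Value of the nearest WT peak (RPM) against the value of the NS-DADm-only peak (RPM), 1 panel per distance class, with the line of equal values dashed and points shifted by up to 0.03 RPM; the chromosome Y peak has no WT neighbour. In all panels the points spread upwards at low NS-DADm values, and WT neighbours of more than 3 RPM occur in each class.

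WT peaks beside NS-DADm-only peaks were listed in NS-DADm about as often as any WT peak. The 212 peaks with a WT neighbour on their chromosome point to 204 different WT peaks, of which 14 overlap an NS-DADm peak (6.86%, 3.80 to 11.2%), against 390 of all 5799 (6.73%, 6.09 to 7.40%). Within 1 kb, 3 of 35 such WT peaks were also overlapped by an NS-DADm peak. At the other 32 places within 1 kb, the NS-DADm list has a peak beside the WT peak and none on it. The closest peaks of the NS-DADm list are 263 bp apart. At the smallest gaps this spacing leaves no room for another NS-DADm peak on the WT peak, so part of this count follows from it.

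NS-DADm peaks of both kinds seldom lay close to another NS-DADm peak. Of the 213 NS-DADm-only peaks, 14 had one within 10 kb (6.57%, 3.64 to 10.8%), against 40 of the 387 overlapping peaks (10.3%, 7.49 to 13.8%). The intervals overlap, which does not settle whether the shares differ. In 12 of the 14 the other peak was on a WT peak, and in 5 that WT peak was also the one nearest to the NS-DADm-only peak. The closest such case was at chromosome 2, 26422214 to 26422413, with 1.3 RPM. The NS-DADm peak 263 bp away had 1.4 RPM and partly overlaps the WT peak of 3.9 RPM that is the nearest to both. At chromosome 6, 48523414 to 48523613 (1.1 RPM), the other peak was 0.539 kb away with 1.6 RPM, on a WT peak of 3.3 RPM. At chromosome 8, 127454859 to 127455058 (1.2 RPM), it was 0.721 kb away with 1.6 RPM, on 1.9 RPM. The 2 peaks among the 14 that had each other as neighbour were at chromosome 5, 123396230 to 123396429 and 123399035 to 123399234, both of 1.1 RPM and 2.61 kb apart.

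That pair belongs to the only stretch in which 3 NS-DADm-only peaks followed one another with gaps of at most 100 kb. It spans 61.4 kb on chromosome 5, from 123396230 to 123457648, and holds 4 NS-DADm and 5 WT peaks. The pair opens it, 46.8 and 44.0 kb from the nearest WT peak. The third NS-DADm-only peak, the one of 1.4 RPM at 123442363, is 0.699 kb before the first WT peak, which has 2.1 RPM. WT peaks of 1.9, 1.0 and 1.4 RPM follow with no NS-DADm peak over them. The last NS-DADm peak, 1.5 RPM at 123457449, overlaps the last WT peak, of 2.2 RPM at 123457402. The other 6 stretches of this kind hold 2 NS-DADm-only peaks each. They include chromosome 2, where the peak of 1.7 RPM past the last WT peak is followed 10.9 kb on by 1 of 1.2 RPM at 181858385 to 181858584. They also include chromosome 13, where peaks of 1.1 RPM at 37533320 and 37545516 are 12.0 kb apart.

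Within 100 kb, WT peaks were sparser around the NS-DADm-only peaks than around the overlapping ones, which were chosen for lying on a WT peak. WT peaks within 100 kb of the centre were counted without any that the NS-DADm peak overlaps. Their median number was 1 (quartiles 0 and 4, maximum 12) for NS-DADm-only peaks and 3 (1 and 5, maximum 15) for overlapping peaks. By class the medians were 4 within 1 kb, 3 over 1 to 10 kb and 2 over 10 to 100 kb. The class over 100 kb has none, by its definition. Counted over 500 kb, the medians were 8, 7.5, 7 and 2, against 7 for overlapping peaks. This wider window includes the inner distances that the class limits leave empty. Part of the lower count of the class over 100 kb thus follows from its definition. WT peaks flanked the site on both sides within 100 kb for 66 of the 213 (31.0%) and for 176 of the 387 (45.5%).

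At 100 to 500 kb WT peaks were sparser around the remote class than around the nearer ones, and farther out its density was close to that of the classes up to 10 kb. Between 100 and 500 kb from the centre there were 3.61 WT peaks per Mb around the class over 100 kb, against 4.75, 6.96 and 6.37 in the nearer classes in order of distance and 6.13 around overlapping peaks. Between 500 and 1000 kb the value was 3.41 per Mb for the remote class, 3.63, 3.43 and 4.59 for the others and 4.58 for overlapping peaks. Over these distances all WT peaks had 5.38 and 3.85 other WT peaks per Mb. The 213 NS-DADm-only peaks together had 5.29 and 3.77, close to those values and below those of overlapping peaks. The densest surroundings of an NS-DADm-only peak were at chromosome 5, 125698759, with 12 WT peaks within 100 kb and 31 within 500 kb.

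**Figure D4:**
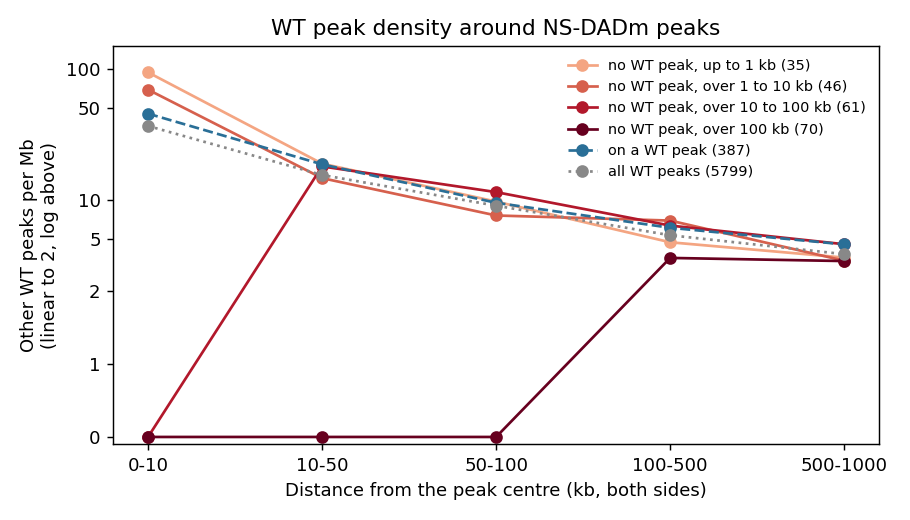
Other WT peaks per Mb (scale linear up to 2 and logarithmic above) by distance from the peak centre (kb, both sides), for the 4 classes of NS-DADm-only peaks, NS-DADm peaks on a WT peak and all WT peaks; zeros near the centre follow from the class limits. From 100 to 500 kb the class over 100 kb lies lowest, at 3.61 per Mb, and the other lines run from 4.75 to 6.96.

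Among peaks of like value, sparse surroundings were more frequent for NS-DADm-only peaks at every step except 1.4 RPM. The intervals were apart at the lowest and the highest step. At the lowest step of 1.1 RPM, 39 of 101 NS-DADm-only peaks had no WT peak within 100 kb (38.6%, 29.1 to 48.8%), against 12 of 94 overlapping peaks (12.8%, 6.77 to 21.2%). At 1.5 RPM or more it was 9 of 17 (52.9%, 27.8 to 77.0%) against 12 of 96 (12.5%, 6.63 to 20.8%). In between the shares were 31.4% (19.1 to 45.9%), 20.0% (7.71 to 38.6%) and 7.14% at 1.2, 1.3 and 1.4 RPM, the last being 1 of 14 peaks. Overlapping peaks had 12.6% (6.48 to 21.5%), 11.1% (4.59 to 21.6%) and 12.8% at these steps. The intervals overlapped at each of these middle steps, which does not show that the shares were alike. At 1.4 RPM the order was reversed. A peak in a region with few WT peaks also has fewer WT peaks to overlap, so membership and density are not separate measures.

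Every chromosome with an NS-DADm peak held at least 1 NS-DADm-only peak. Chromosome 11 had 24 of its 53 NS-DADm peaks without a WT peak (45.3%, 31.6 to 59.6%) and chromosome 5 had 23 of 55 (41.8%, 28.7 to 55.9%). They also carry many WT peaks, 440 and 411. Chromosome 4, with 441, had 14 of 48 NS-DADm peaks without one (29.2%, 17.0 to 44.1%). The lowest autosomal share was 6 of 25 on chromosome 12 (24.0%, 9.36 to 45.1%). The interval of each of the 19 autosomes includes the overall 35.5%, so none was distinguishable from it at these numbers. Per 100 WT peaks the autosomes had 2.05 (chromosome 6) to 5.60 (chromosome 5) NS-DADm-only peaks, with 3.67 over all chromosomes. Chromosome 5 held 10 of the 70 peaks over 100 kb from WT, chromosome 11 held 8 and chromosome 1 held 7. Chromosome 14 held 0.

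**Figure D5:**
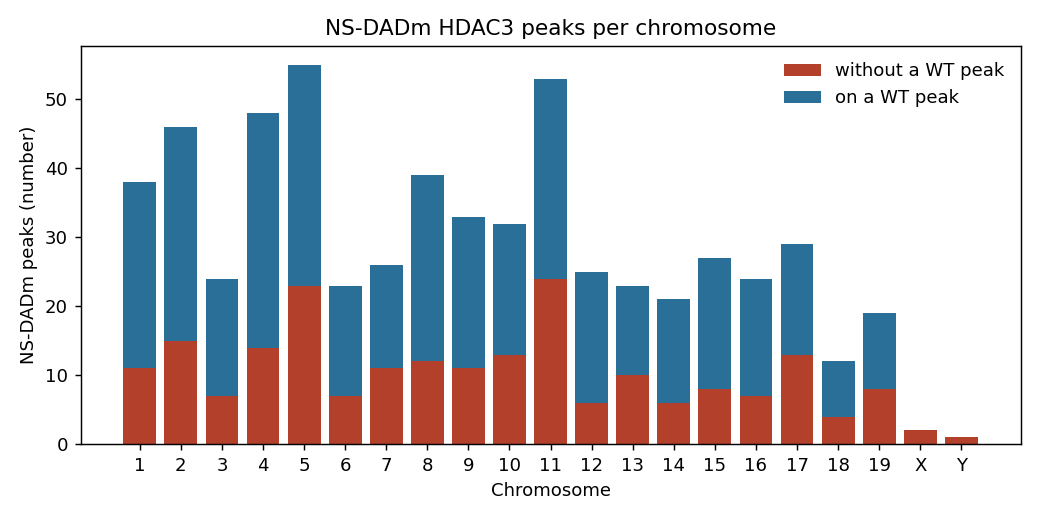
Number of NS-DADm peaks per chromosome, split into those without and those on a WT peak. Chromosomes 11 and 5 hold the most NS-DADm-only peaks, 24 and 23, and the 3 NS-DADm peaks on X and Y all lack a WT peak.

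Each deposited peak name ends in a running number within its chromosome, which did not enter the choice of peaks. Divided by the last listed number of the chromosome, it had a median of 31.7% for NS-DADm-only peaks (quartiles 18.2 and 46.6%) and 22.5% (13.3 and 39.0%) for overlapping peaks. At like values the numbers were close, with medians of 37.0% and 39.2% at 1.1 RPM and 11.8% and 11.4% at 1.5 RPM or more. On 4 of the 21 chromosomes, 11, 18, X and Y, the first listed number belongs to an NS-DADm-only peak. That number is 50 on chromosome 11, 5 on 18, 67 on X and 97 on Y. On the other chromosomes an overlapping peak came first, at numbers from 1 on chromosome 8 to 49 on chromosome 9. The NS-DADm-only peak of 2.1 RPM on chromosome 11 has number 143, and that of 1.8 RPM on chromosome 19 has number 3. What the missing numbers stood for is not given in the sources used here.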

How the data were processed

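The authors deposited 1 peak list for NS-DADm and 1 for WT liver, and the value of each peak was taken as RPM because the list names carry a limit of 1 RPM; the lists have no header that defines it. Per the submitters' processing notes, HOMER and the build mm8 were used. Which aligner and which calling settings were used, and whether the input entered, is not given in the sources used here; depth is unknown, so single peak values carry no interval.

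Peaks were compared with Python 3.11.15, numpy 2.4.6, pandas 2.3.3 and scipy 1.17.1. A peak was NS-DADm-only when it shared not even 1 base with a WT peak. Distances are the bases between peaks, windows run from centre to centre, and coordinates count from 1. The distance and overlap steps were tested on simulated data: of 200 placed peaks, 200 were returned to their class. That checks the counting only.

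The peaks and comparisons were chosen with earlier results of these data known. Peaks named are the 5 highest of each distance class (ties by chromosome and start, with the other peaks tied at the fifth place added later), the 3 nearest to and farthest from WT, the 3 with the smallest overlap, and the 3 closest pairs. Others were named after their values were seen: the chromosome Y peak, those with the highest WT neighbour, the closest overlapping NS-DADm peak or the densest surroundings, and the chromosome 5 stretch. Alternatives changed the overlap rule, the limits, the WT list length, the windows and the distance measure. No replicate could be left out. The gene table at hand is of another build and was not used.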

Additional observations from a re-analysis of the deposited data

How the results depend on the processing

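Of 84 recalculations of 12 values, 63 stayed within 1.5 times a count or within the 95% interval of a share or median, and 21 did not. With NS-DADm peaks of 1.2 RPM or more only, by construction fewer, 112 NS-DADm-only peaks were left, with 28, 26 and 31 in the 3 classes over 1 kb, 13 on chromosome 11 and 10 on chromosome 5. Their median value was then 1.3 RPM and their median relative peak number 24.1%. Against only the highest WT peaks, as many as NS-DADm lists, 456 NS-DADm peaks had no WT peak, by construction more. Of these, 10 lay within 1 kb, 26 over 1 to 10 kb and 361 over 100 kb away. Membership depends on the length of the WT list, in a direction that was fixed in advance. Requiring 50% reciprocal overlap put 95 peaks in the class up to 1 kb in place of 35, and counting gaps of up to 500 bp as overlap put 16 there. The 95 include peaks that share less than 50% with a WT peak. That partly overlapped WT peak then counts as their nearest, with no gap. The reciprocal rule also gave a median of 1.6 RPM for the nearest WT peak and 74.0% of NS-DADm-only peaks with a WT peak within 100 kb, against 66.7%. For the 81 of 213 NS-DADm-only peaks with a WT peak within 10 kb, the highest such WT peak had a median of 1.6 RPM. By construction it is at least as high as the nearest one. At 50 and 500 kb the share with a WT peak was 59.2% and 91.5%. Another NS-DADm peak lay within 1 kb for 1.41% and within 100 kb for 22.5%. The class over 100 kb held 68 to 79 peaks under the other overlap, limit and distance settings. No paired analysis was possible because each list comes from 1 library, the WT one joined from 2 samples.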
